A study of Homo sapiens with 6 samples.

Results

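CD80, CD86, CD274, PDCD1LG2, ICOSLG, CD276, VSIR, CD83, CD47 and HAVCR2 encode surface proteins that take part in stimulating or restraining T cells and macrophages. They are 10 of the 58735 genes of the deposited expression table and were chosen by name. Raji is a human B-cell line from a Burkitt lymphoma, and all cells in both groups carried a GFP and firefly luciferase reporter (GFP-ffluc). One group was kept at 37 °C through a night in 1 nM Bryostatin-1, and the other in DMSO under the same conditions. Bryostatin-1 is a natural product from a marine bryozoan that activates protein kinase C in place of diacylglycerol. Polyadenylated RNA of 3 libraries per treatment was sequenced, and the comparison asks how transcript levels differ between the treatments. Whether the 3 libraries of a group came from separate cultures is not given in the sources used here, so the spread between them may be technical only. Cells of a single line stand in here for tumour B cells, and the labels name no T cells or macrophages in the cultures.

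T cells need a costimulatory signal beside antigen, which B7 family ligands give by binding CD28 or ICOS on the T cell. Other ligands of the same family bind inhibitory receptors such as PD-1, and CTLA4 competes with CD28 for CD80 and CD86. CD47 binds SIRPA on macrophages and restrains phagocytosis. Activated B cells raise CD80, CD86 and CD83, and protein kinase C reaches these genes in part through NF-kB.

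The labelled cell type was checked against marker genes. All 12 B-cell markers had a mean above 1 FPKM, fragments per kilobase of gene scaled for sequencing depth. Their summed level was 4598 to 5324 FPKM in DMSO and 3758 to 4912 FPKM with bryostatin. Of 10 monocyte and macrophage markers none reached 1 FPKM, with sums of 0.867 to 1.21 FPKM in DMSO and 0.200 to 0.775 FPKM with bryostatin, and S100A8, MPO and C1QA were at 0 in all libraries. Of 13 T-cell and NK-cell markers TRAC and NKG7 passed 1 FPKM while CD2, CD7, KLRD1 and NCAM1 were at 0 (sums of 5.18 to 16.5 FPKM in DMSO and 5.34 to 16.8 FPKM with bryostatin). Of 9 dendritic-cell markers CD1C passed while CLEC9A, FCER1A and CLEC4C were at 0 (sums of 0.631 to 4.09 FPKM and 1.10 to 4.59 FPKM). The libraries held 19405370 to 24468270 reads on genes. The 23 proliferation genes set DMSO replicate 3 apart from its group: their mean on the log2(FPKM + 1) scale, relative to all 6 libraries, stood at -0.66, -0.44 and 0.22 in DMSO replicates 1 to 3, against 0.47, 0.19 and 0.23 with bryostatin. Another split cut across the groups. TRAC was at 3.66, 11.5 and 3.12 FPKM in DMSO replicates 1 to 3 and 11.7, 3.28 and 13.5 FPKM with bryostatin. CD1C, MS4A1 and ICOSLG were likewise higher in DMSO replicate 2 and bryostatin replicates 1 and 3 than in the other libraries, while PAX5 and CD79B were not. The part of these differences in the results below was not tested.

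Promoter windows of 250 bases upstream of a RefSeq start (GRCh38.p14) were found for 8 of the 10 genes, 11 windows in all, since CD86, CD83 and CD276 have a pair each. PDCD1LG2 and HAVCR2 had no entry. Windows of the CD28 ligands CD80 and CD86 are shown because these genes lay lower together with bryostatin. For CD86 only the downstream window is shown, which holds an NF-kB match. The upstream one, chr3:122055112-122055361, holds none, and which start these cells used was not tested. The CD80 window is chr3:119559615-119559864 on the minus strand, and that of the downstream CD86 start is chr3:122077534-122077783 on the plus strand. Neither overlaps an exon of GENCODE release 29. Capitals mark matches to the NF-kB consensus, and CD80 has none.
CD80 promoter: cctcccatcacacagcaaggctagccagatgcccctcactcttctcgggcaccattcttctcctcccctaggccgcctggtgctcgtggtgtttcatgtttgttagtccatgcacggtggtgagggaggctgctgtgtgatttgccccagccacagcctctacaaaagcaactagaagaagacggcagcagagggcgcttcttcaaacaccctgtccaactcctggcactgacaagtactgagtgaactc
CD86 downstream promoter: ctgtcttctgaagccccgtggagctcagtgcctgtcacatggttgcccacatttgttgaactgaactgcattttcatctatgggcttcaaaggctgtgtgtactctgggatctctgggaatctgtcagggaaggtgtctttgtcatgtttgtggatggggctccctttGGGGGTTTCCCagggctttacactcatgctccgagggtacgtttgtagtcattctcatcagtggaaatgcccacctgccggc

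The NF-kB consensus was searched on both strands and found in 3 windows of these genes: the downstream starts of CD86 and CD83, and VSIR. The 30 bases around each are shown to compare an abundant gene, a moderately expressed gene and a gene without reads. The matches lay 82 to 72 bases before the start in CD86 (2 overlapping matches), 76 to 65 bases in CD83 (3 overlapping matches) and 130 to 121 bases in VSIR (1 match). The sites are chr3:122077692-122077721 (plus strand), chr6:14117687-14117716 (plus strand, within an annotated CD83 exon) and chr10:71773631-71773660 (minus strand).
CD86 site: ggctccctttGGGGGTTTCCCagggcttta
CD83 site: ctgcccgccGGGGAATCCCCCgggctggcg
VSIR site: gccggcctccGGGAAGCCCCtcccacgcgg

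Of all 35116 promoter windows 5.21% held this consensus. The AP-1 site TGANTCA (6.57% of all windows) and the CRE TGACGTCA (1.65%), which protein kinase C signalling also reaches, matched none of the 11 windows. GAAANNGAAA, the interferon-stimulated response element (3.02%), and TTCNNNGAA, the STAT site (6.57%), matched in CD274 only, where interferon induction is well known. The GC box GGGCGG (42.6%) was in the windows of CD47, CD274, VSIR and ICOSLG, both windows of CD276 and the downstream one of CD83. The CD80 window held none of these, nor the octamer ATGCAAAT (1.63%), the PU.1 core GAGGAA (23.6%) or the TATA box TATAAA (10.7%). These matches describe letters in a window and were not tied to binding.

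The 10 genes spanned the whole range of expression. CD83 was the most abundant at a mean of 112 FPKM over the 6 libraries, higher than 97.3% of the tested genes. CD86 (12.9 FPKM), CD47 (11.7 FPKM) and CD80 (9.41 FPKM) followed, then ICOSLG (1.86 FPKM), HAVCR2 (1.44 FPKM), CD274 (0.541 FPKM) and PDCD1LG2 (0.102 FPKM). The library ranges of CD86, CD47 and CD80 overlapped each other, as did those of ICOSLG and HAVCR2. The other neighbours among these 8 genes were apart in all 6 libraries. CD276 and VSIR had 0 reads in each library. With 3 reads taken as the upper limit for a count of 0, this limit was 0.0220 to 0.0285 FPKM for CD276 and 0.0237 to 0.0308 FPKM for VSIR. FPKM is per length, so levels of different genes can be compared roughly. Those of ICOSLG and CD80 are less certain, because they share sequence or exonic bases with other genes, as given below.

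**Figure D1:**
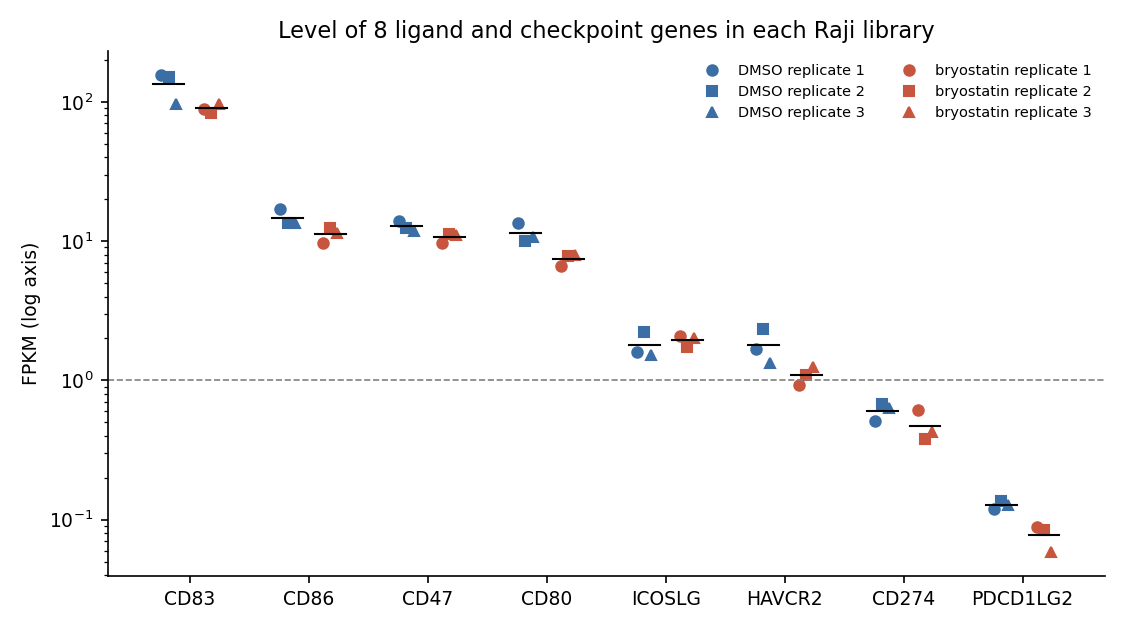
FPKM (log axis) of 8 genes in each of the 6 libraries, with blue symbols for DMSO, red symbols for bryostatin, black lines for group means and a dashed line at 1 FPKM, the level needed for testing. CD83 lies far above the other genes and CD274 and PDCD1LG2 lie below the dashed line; CD276 and VSIR, at 0, cannot be drawn on a log axis.

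A mean of 1 FPKM was required for testing, which 6 of the 10 genes and 11071 genes in all reached, and limma was run on log2(FPKM + 1). In limma 0 genes passed an adjusted p of 0.05 (0% of those tested), 0 of the 6 among them, while 1954 had an unadjusted p under 0.05. With voom weights on the reads the counts were 0 and 2184. CD80, CD86, CD83, CD47 and HAVCR2 had lower means with bryostatin, each at an unadjusted p under 0.05, a level that 7.18% of all tested genes reached in the lower direction and 10.5% in the higher. Under TPM scaling that split of all genes turned, with 1099 lower and 848 higher in place of 795 and 1159, and the 5 genes stayed at 5. CD80, CD86, CD47 and HAVCR2 did not overlap between the groups, bryostatin being the lower, as in 10.7% of all tested genes (12.9% with bryostatin the higher). Without DMSO replicate 3 both counts were 5, beside 10.2% and 19.7% of all tested genes, and CD83 joined the genes without overlap. The count of 5 at an unadjusted p under 0.05 moved with single libraries. It was 1 without DMSO replicate 1 and 1 without bryostatin replicate 1. In these fits 328 and 353 of all tested genes were lower at that level, in place of 795. It was 2 without DMSO replicate 2 (677 of all tested genes) and 3 without bryostatin replicate 2 (823) or 3 (519). The median log2 change of the 6 was -0.38, against 0.02 for all tested genes. These 6 genes were proposed with earlier results in view, so their counts describe them and give no independent support. In bulk RNA, fewer cells with a transcript and less of it per cell cannot be told apart.

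**Figure D2:**
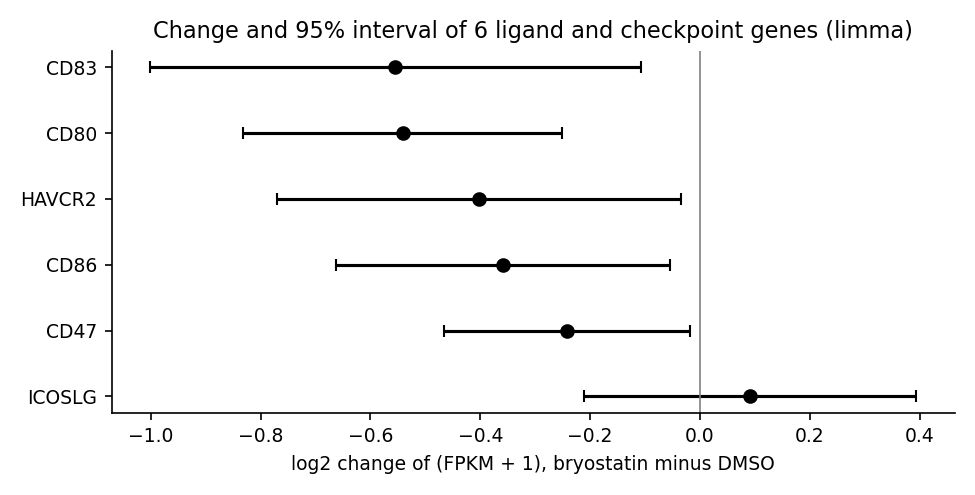
Difference of mean log2(FPKM + 1), bryostatin minus DMSO, for the 6 tested genes (points) with the 95% interval from limma (bars). The intervals of CD83, CD80, HAVCR2, CD86 and CD47 lie below 0 before adjustment for the 11071 genes tested, and that of ICOSLG spans 0.

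Among the costimulatory ligands, CD80 (B7-1, gene ENSG00000121594, chromosome 3, 119524293 to 119559602, hg38) binds CD28 and, more tightly, CTLA4. Its level was 13.4, 10.0 and 10.7 FPKM in DMSO replicates 1 to 3 and 6.67, 7.82 and 7.89 FPKM in bryostatin replicates 1 to 3. Every bryostatin library lay below every DMSO library, and DMSO replicate 1 was the highest of all. The means were 11.4 ± 1.81 and 7.46 ± 0.686 FPKM (SD, n = 3 each). The log2 change was -0.54 with a standard error of 0.12 and a 95% interval from -0.83 to -0.25, 1.45-fold lower on the log2(FPKM + 1) scale (limma, unadjusted p = 0.00306, adjusted p = 0.216). CD80 shares 798 exonic bases with TIMMDC1 on the opposite strand, a mitochondrial assembly factor gene at 22.5 ± 0.470 FPKM in DMSO and 24.3 ± 2.26 FPKM with bryostatin. The strand setting of the counting is not given in the sources used here, so reads in that stretch cannot be assigned with certainty. TIMMDC1 had a change of the opposite sign (log2 change 0.10, adjusted p = 0.554).

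CD86 (B7-2, ENSG00000114013, chromosome 3, 122055366 to 122121139) is the other ligand of CD28 and CTLA4, and in B cells the earlier to appear after activation. It was at 16.98, 13.4 and 13.5 FPKM in DMSO replicates 1 to 3 and 9.64, 12.5 and 11.4 FPKM with bryostatin. The groups did not overlap, though bryostatin replicate 2 came close to DMSO replicates 2 and 3. The means were 14.6 ± 2.05 and 11.2 ± 1.45 FPKM, a log2 change of -0.36 (SE 0.13, 95% interval -0.66 to -0.05, adjusted p = 0.241 in limma). Its gene lies 2496 kb from that of CD80, and no exon of another gene overlaps it.

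Because CD80 and CD86 share their receptors, their ratio was taken within each library on the log2 scale of FPKM + 1. The values were -0.32, -0.39 and -0.31 in DMSO replicates 1 to 3 and -0.47, -0.62 and -0.47 with bryostatin. CD86 therefore had the higher FPKM in all 6 libraries, and the groups did not overlap, the ratio being lower with bryostatin. The difference of the means was -0.18 (exact permutation test, two-sided p = 0.1, the smallest that 3 against 3 libraries allow). The shared reads of CD80 and TIMMDC1 bear on this ratio too. The shared stretch is 798 of the 3201 bases of CD80, and how its reads were counted is not given. Which of CD80 and CD86 was the more abundant is therefore not certain.

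ICOSLG (B7-H2, ENSG00000160223, chromosome 21, 44217014 to 44240966) binds ICOS on follicular helper T cells, through which B cells receive help in germinal centres. It was at 1.61, 2.22 and 1.51 FPKM in DMSO replicates 1 to 3 and 2.10, 1.72 and 2.02 FPKM with bryostatin. The bryostatin libraries lay inside the DMSO range, with a log2 change of 0.09 and a 95% interval from -0.21 to 0.39 (adjusted p = 0.728 in limma).

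The value of ICOSLG is uncertain because the table also holds FP565260.3 (ENSG00000277117, chromosome 21, 5022493 to 5040666), described there as an ICOS ligand. Of the stretches of 75 bases in the GENCODE transcripts of this copy, 90.3% also occur in transcripts of ICOSLG, and 32.8% of those of ICOSLG occur in the copy. The copy took more reads than ICOSLG in every library: 570, 655 and 396 against 370, 455 and 283 in DMSO replicates 1 to 3, and 445, 420 and 493 against 372, 322 and 408 with bryostatin. ICOSLG thus held 39.4%, 41.0% and 41.7% of their summed reads in DMSO and 45.5%, 43.4% and 45.3% with bryostatin, a share that was higher in each bryostatin library. With the reads of both rows summed, a choice made after the values were seen, the log2 change was 0.0045 with a 95% interval from -0.31 to 0.32 (adjusted p = 0.990 in limma).

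**Figure D3:**
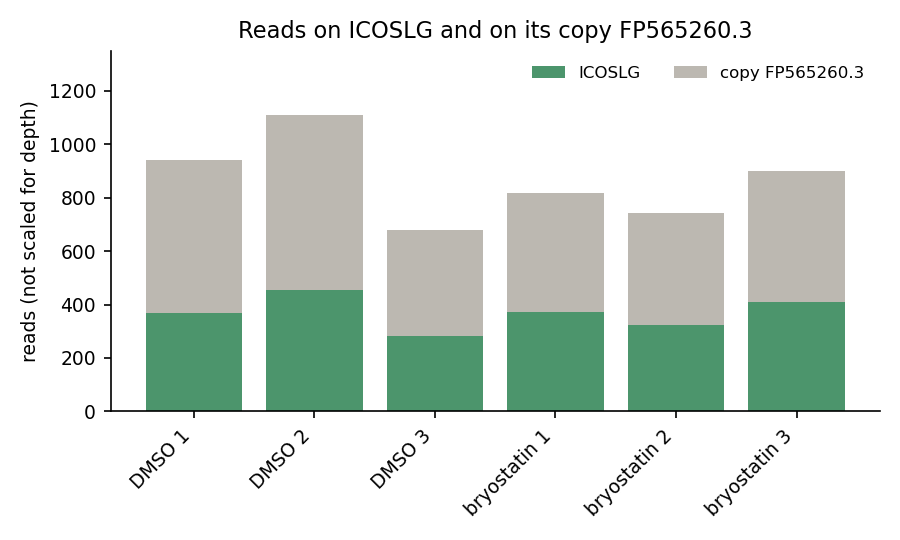
Reads on ICOSLG (green) and on its copy FP565260.3 (grey) in each of the 6 libraries, stacked and not scaled for library depth. The copy holds more reads than ICOSLG in every library, and DMSO replicate 2 has the highest sum.

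The ligands of PD-1 were scarce. CD274 (PD-L1, ENSG00000120217, chromosome 9, 5450503 to 5470566) was at 0.514, 0.678 and 0.632 FPKM in DMSO replicates 1 to 3 and 0.616, 0.377 and 0.429 FPKM with bryostatin. Bryostatin replicate 1 lay inside the DMSO range, and the libraries held 31 to 61 reads each. With genes from a mean of 0.1 FPKM included, the log2 change was -0.13 (SE 0.10, adjusted p = 0.602 in limma). The added 1 FPKM shrinks changes of genes this low, and with 0.1 FPKM added, a choice made after seeing the data, it was -0.32 (adjusted p = 0.458). PDCD1LG2 (PD-L2, ENSG00000197646, chromosome 9, 5510570 to 5571254) begins 40.004 kb beyond the end of CD274. It was at 0.120, 0.135 and 0.127 FPKM in DMSO and 0.0892, 0.0845 and 0.0588 FPKM with bryostatin. The groups did not overlap, but the values rest on 7, 7 and 6 reads in DMSO and 4, 4 and 3 reads with bryostatin, and the log2 change was -0.07 (adjusted p = 0.733 in limma). With 0.1 FPKM added it was -0.36 (unadjusted p = 0.0178, adjusted p = 0.458 in limma), so its size is set mostly by the constant.

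The summed CD28 ligands CD80 and CD86 exceeded the summed PD-1 ligands CD274 and PDCD1LG2 in all libraries. On the log2 scale of FPKM + 1 their ratio came to 4.26, 3.75 and 3.84 in DMSO replicates 1 to 3 and 3.34, 3.87 and 3.77 with bryostatin. The groups overlapped, bryostatin replicate 2 lying above DMSO replicates 2 and 3, with a difference of -0.29 (exact permutation test, two-sided p = 0.5; smallest possible 0.1). The denominator is mostly the added 1 FPKM, so these ratios understate the gap between the sums. The difference was -0.10 with 0.1 FPKM added, -0.14 without DMSO replicate 1 and -0.13 without bryostatin replicate 1.

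**Figure D4:**
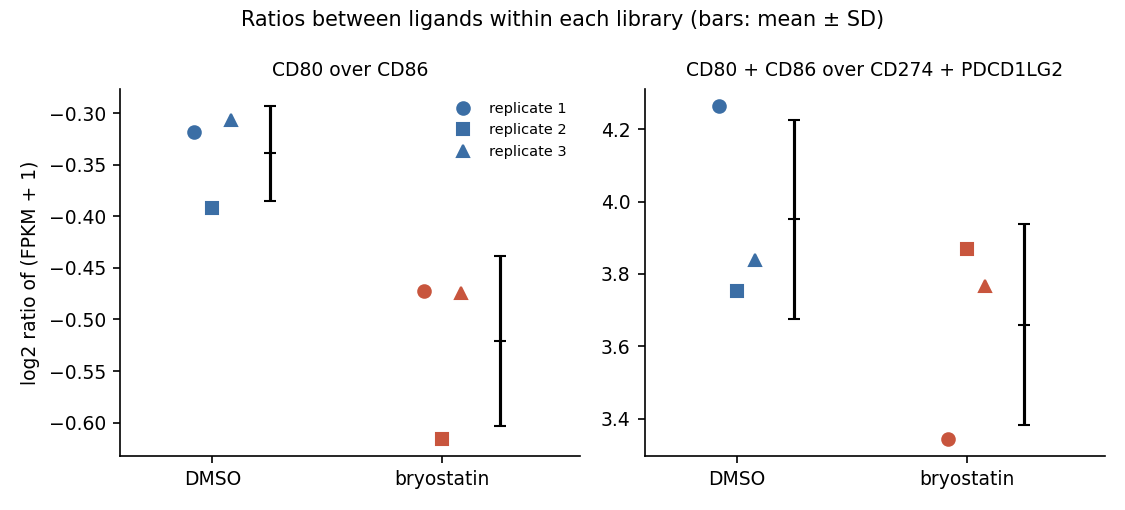
Log2 ratios of FPKM + 1 within each library, CD80 over CD86 on the left and CD80 plus CD86 over CD274 plus PDCD1LG2 on the right, with symbols for replicates and bars for mean ± SD of 3 libraries. On the left the groups are apart (-0.39 to -0.31 in DMSO, -0.62 to -0.47 with bryostatin), and on the right they overlap; the axes do not start at 0.

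Of the other inhibitory B7 members, CD276 (B7-H3, ENSG00000103855, chromosome 15, 73683966 to 73714518) is often found on solid tumours. VSIR (VISTA, ENSG00000107738, chromosome 10, 71747559 to 71773498) is a checkpoint mostly of myeloid and T cells. Neither had a read in any library, as given above, and no comparison could be made.

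CD83 (ENSG00000112149, chromosome 6, 14117256 to 14136918) marks activated B cells and mature dendritic cells, and stabilises CD86 and MHC class II at the surface. It was at 157, 152 and 96.7 FPKM in DMSO replicates 1 to 3 and 89.5, 83.1 and 96.8 FPKM with bryostatin. DMSO replicates 1 and 2 stood apart, while DMSO replicate 3 lay inside the bryostatin range. The means were 135 ± 33.4 and 89.8 ± 6.86 FPKM, a log2 change of -0.55 (SE 0.19, 95% interval -1.001 to -0.11, unadjusted p = 0.0218, adjusted p = 0.233 in limma). Without DMSO replicate 3 the change was -0.78 and passed (adjusted p = 0.0336), as did 0.641% of all tested genes in the lower direction. That fit sets only DMSO replicates 1 and 2 against the bryostatin libraries. With DMSO replicate 1 or 2 left out the change was -0.43 or -0.45.

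CD47 (ENSG00000196776, chromosome 3, 108043094 to 108091862), the ligand of SIRPA, was at 14.0, 12.5 and 11.9 FPKM in DMSO replicates 1 to 3 and 9.70, 11.2 and 11.1 FPKM with bryostatin. The groups did not overlap but lay close, DMSO replicate 3 being next to bryostatin replicate 2. The log2 change was -0.24 (SE 0.095, 95% interval -0.47 to -0.02, adjusted p = 0.262 in limma), the smallest of the 5 lower genes.

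HAVCR2 (TIM-3, ENSG00000135077, chromosome 5, 157085832 to 157142869) is a checkpoint receptor rather than a ligand, best known on exhausted T cells and on myeloid cells. It was at 1.69, 2.34 and 1.33 FPKM in DMSO replicates 1 to 3 and 0.929, 1.09 and 1.24 FPKM with bryostatin. The groups did not overlap, and DMSO replicate 3 was again the DMSO library nearest to bryostatin. The log2 change was -0.40 (SE 0.16, 95% interval -0.77 to -0.03, adjusted p = 0.258 in limma). The added 1 FPKM shrinks changes of genes this low, and with 0.1 FPKM added the change was -0.64. With voom weights on the reads it was -0.70, and without DMSO replicate 2, the highest library, -0.26. The ratio of the HAVCR2 means, bryostatin over DMSO, was 0.610, against 0.656 for CD80 and 0.664 for CD83. Its 67 to 195 reads per library make it the least deeply covered of the tested genes here. It shares 50 exonic bases on the same strand with MED7, a Mediator subunit gene, which was higher in each bryostatin library (3.44 ± 0.190 and 4.53 ± 0.589 FPKM).

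Over the 6 libraries, which share depth and treatment, CD86 and CD47 had a Pearson correlation of 0.98 on the log2(FPKM + 1) scale, CD80 and CD86 of 0.96, and CD80 and CD47 of 0.96. These 3 were highest in DMSO replicate 1 and lowest in bryostatin replicate 1. CD83 correlated most with HAVCR2 (0.89) and less with CD47 (0.82), CD80 (0.77) and CD86 (0.72), while HAVCR2 and CD47 were at 0.76. Thus the 5 lower genes all correlated positively. Genes that are lower in the same group tend to do so, since the group means were not removed. DMSO replicate 3 lay inside the bryostatin range for CD83 and above it for HAVCR2, CD47, CD86 and CD80. ICOSLG was at -0.55 with CD80 and 0.09 with CD83.

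**Figure D5:**
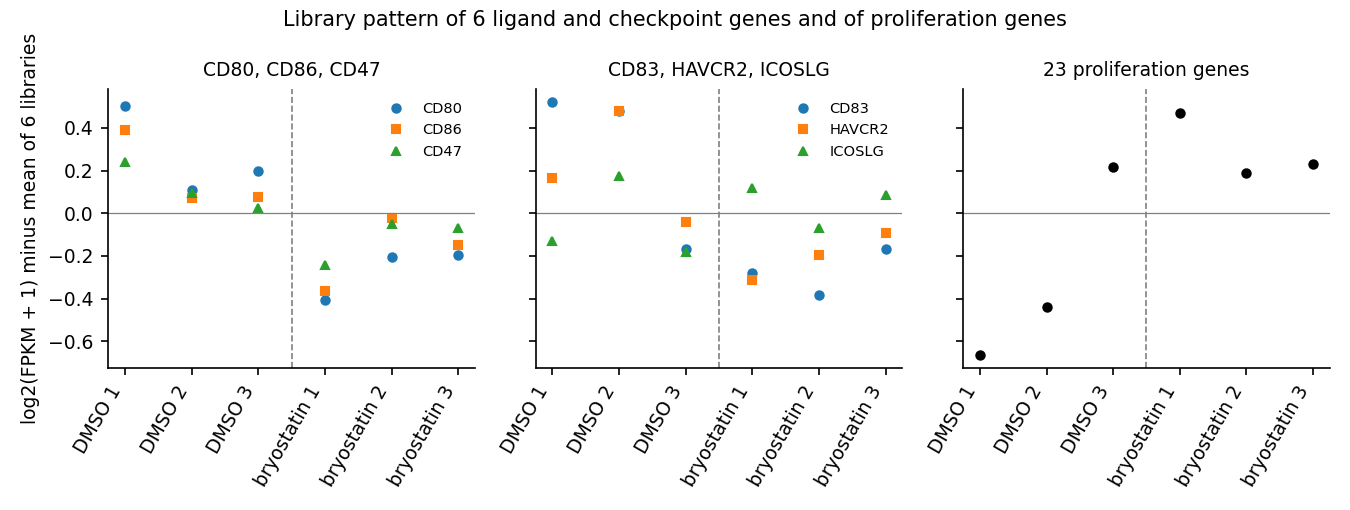
Log2(FPKM + 1) in each library relative to the mean of the 6 libraries, for CD80, CD86 and CD47 (left), CD83, HAVCR2 and ICOSLG (middle) and the mean of 23 proliferation genes (right), with a dashed line between DMSO and bryostatin. DMSO replicate 3 lies with the bryostatin libraries for CD83 and for the proliferation genes, but above them for CD80, CD86 and CD47.

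Among 9265 tested protein-coding genes, those most like CD80 across the libraries were PUS10, PPP6R2 and MTMR4 (Pearson r of 0.996, 0.996 and 0.995). The most like CD86 were SCD, MAST3 and GMDS (0.995, 0.994 and 0.994), and the most like CD47 were NUP210, C11orf49 and TBL1X (0.997, 0.996 and 0.996). For CD83 they were ZNF274, ESYT2 and FIG4 (0.998, 0.996 and 0.994), for HAVCR2 TBC1D17, RBPMS2 and GLCCI1 (0.990, 0.987 and 0.984), and for ICOSLG ADAM15, CORO1B and MAP4K2 (0.999, 0.988 and 0.984). Such likeness was common with 6 libraries, since 477 genes (5.15%) reached 0.9 with CD80, 553 (5.97%) with CD86 and 525 (5.67%) with CD47. With CD83 317 genes did, with HAVCR2 139 and with ICOSLG 123.

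Further genes of the pathway were described as lists, and 0 genes of any list passed in limma. The sign of each list's median below was the same under TPM scaling and quantile normalisation, while some counts moved. Lower transcription regulators went from 14 of 23 to 18 and 20, and lower genes that act on the proteins from 9 of 16 to 11 and 11. Lower genes of the other inhibitory list went from 3 of 5 to 4 and 4, and those of the other B7 list from 5 of 7 to 6 and 5. Of all 11071 tested genes 5104 were lower and 5967 higher, and an unadjusted p under 0.05 was reached by 7.18% of them in the lower and 10.5% in the higher direction, the background for each count. Of the other 15 B7 and butyrophilin genes 7 were tested, 5 lower and 2 higher, with 0 at an unadjusted p under 0.05 and a median log2 change of -0.13. NCR3LG1 (B7-H6), a ligand of the NK-cell receptor NKp30, was the most abundant at 17.8 ± 1.10 FPKM in DMSO and 15.6 ± 0.439 FPKM with bryostatin, without overlap (log2 change -0.18, adjusted p = 0.306). BTN2A1, which takes part in the recognition of phosphoantigens by gamma-delta T cells, had a log2 change of 0.16, and the blood group gene ERMAP -0.23. NCR3LG1 thus stood above CD80, CD86 and CD47 in level, while VTCN1 and BTNL8, picked after their values were seen, had 0 reads.

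A list of receptors, whose main place is on T cells and myeloid cells, was nearly silent except for LILRB1. The list holds receptors of these ligands and others that bind different molecules. CTLA4 and ICOS were at 0 in all libraries, and CD28, PDCD1 and SIRPA had group means of at most 0.0036, 0.0064 and 0.0030 FPKM. Of the 18 genes of the receptor list only LILRB1 was tested. LILRB1 is an inhibitory receptor for MHC class I, not for the ligands chosen by name, and B cells also carry it. It was at 18.3 ± 2.56 FPKM in DMSO and 15.2 ± 3.50 FPKM with bryostatin (log2 change -0.27, adjusted p = 0.445). SELPLG, a selectin ligand that can bind VISTA, was next at 0.576 ± 0.337 and 0.504 ± 0.102 FPKM.

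Of 13 other costimulatory and adhesion genes, mostly of ligands, 9 were tested, 8 lower and 1 higher, with a median log2 change of -0.40. An unadjusted p under 0.05 was reached by 2 of them, both lower. ICAM1, the ligand of LFA-1, had a log2 change of -0.42 (adjusted p = 0.221) without overlap, and CD48, which binds CD244, one of -0.45 (adjusted p = 0.232) with overlap. CD70, the ligand of CD27, was the most abundant and had -0.16. The mean of the list per library stood at 0.26, 0.36 and -0.17 in DMSO replicates 1 to 3, against -0.12, -0.27 and -0.06 with bryostatin, so DMSO replicate 3 lay inside the bryostatin range here as for CD83. Of 18 other inhibitory genes, which include receptors and enzymes beside ligands, 5 were tested, 3 lower and 2 higher. HMGB1, a chromatin protein that is also a TIM-3 ligand when released, was at 74.4 ± 22.7 FPKM in DMSO and 120 ± 17.3 FPKM with bryostatin, higher in each bryostatin library (log2 change 0.72, adjusted p = 0.217). CD52 (-0.12), HLA-E (0.02) and SIGLEC10, a receptor of CD24 and CD52 (-0.24), overlapped between the groups.

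Of 25 transcription regulators of these ligands 23 were tested, 14 lower and 9 higher, with a median log2 change of -0.12 and 2, both lower, at an unadjusted p under 0.05. NFKB2, the subunit of the alternative NF-kB pathway, was at 42.0 ± 5.16 FPKM in DMSO and 34.6 ± 1.48 FPKM with bryostatin (log2 change -0.26, adjusted p = 0.273). IRF4 was at 1.32 ± 0.314 and 0.819 ± 0.162 FPKM (log2 change -0.34, adjusted p = 0.282), and neither gene overlapped between the groups. MYC (-0.17) and HIF1A (0.13) did. The 2 of 23 are near the 7.18% of all tested genes, and DMSO replicate 3 lay inside the bryostatin range of the list's mean (-0.05, against -0.11 to -0.0050). The NF-kB feedback and target genes had 12 of 15 tested members lower and 3 higher, and an unadjusted p under 0.05 was reached by 5 of the lower and 1 of the higher genes, with a median log2 change of -0.25. The list's mean was 0.22 and 0.40 in DMSO replicates 1 and 2, while DMSO replicate 3 (-0.18) lay between bryostatin replicates 2 (-0.37) and 1 (-0.07). TNFAIP3 and BCL2A1 had log2 changes of -0.56 and -0.75 (adjusted p = 0.216 each in limma), without overlap between the groups. The abundant EBI3 (-0.58, adjusted p = 0.251) and LTB (-0.27, adjusted p = 0.720) overlapped. LTB was at 318, 465 and 161 FPKM in DMSO replicates 1 to 3 and 295, 181 and 251 FPKM with bryostatin.

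Of 17 genes that act on the proteins of these ligands 16 were tested, 9 lower and 7 higher, with a median log2 change of -0.02. An unadjusted p under 0.05 was reached by 2 of the lower and 2 of the higher genes. CMTM6, which keeps PD-L1 at the surface, was at 25.9 ± 2.30 FPKM in DMSO and 25.9 ± 3.20 FPKM with bryostatin (log2 change -0.0041, 95% interval from -0.28 to 0.27). MARCH1, the ligase that removes CD86 and MHC class II from the surface, was at 1.52, 1.41 and 1.57 FPKM in DMSO replicates 1 to 3 and 0.906, 1.45 and 1.04 FPKM with bryostatin (log2 change -0.24, adjusted p = 0.361). QPCTL, which modifies CD47 for SIRPA binding, had -0.11 (adjusted p = 0.590). STUB1 and COPS5, which act on the turnover of PD-L1, had 0.30 and 0.29 (adjusted p = 0.217 each) and lay higher in each bryostatin library, while the abundant USP22 (0.11) and HIP1R (-0.10) overlapped. The 2 lower genes, named after their values were seen, were MARCH8 (-0.24, adjusted p = 0.232), which also acts on CD86, and GSK3B (-0.22, adjusted p = 0.273), a kinase that marks PD-L1 for degradation, both without overlap. The proliferation list had all 23 genes higher and 13 at an unadjusted p under 0.05, among them AURKB (0.79), ZWINT (0.87) and MCM7 (0.79), with PCNA at 0.60. For this list too DMSO replicate 3 (0.22) lay inside the bryostatin range (0.19 to 0.47).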

How the data were processed

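RNA from a silica column kit was made into poly(A)-enriched libraries per the labels' protocols. Per the submitters' processing notes the build was hg38. The same notes list featureCounts 1.5.0-p3, HISAT2 2.0.5, CASAVA and DESeq2 1.20.0 without roles. No source used here states the annotation, the strand setting or filters. The authors deposited FPKM values. All 58735 gene coordinates matched GENCODE release 29. FPKM times gene length fell on whole multiples of 1 step per library for 100% of positive values (tolerance 0.05 reads), which gave reads per gene, and equalled median-of-ratios scaled reads per length.

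The 11071 genes whose mean reached 1 FPKM entered limma 3.58.1 (R 4.3.3) as log2(FPKM + 1), eBayes with intensity trend and Benjamini-Hochberg adjustment over them. No count model served as the main test. Limits for 0 counts use 3 reads and cover counting error only. The fit was tested on simulated data. The symbols MARCH1 and MARCH8, spelled as dates in the table, were matched by gene ID.

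All 10 genes were named. From each further list the 2 most abundant and the 2 with the smallest p were named, with chosen receptors and regulators and, for each tested gene, the 3 protein-coding genes most correlated with it. The members and lists were chosen with earlier results of these data known. Alternatives covered pseudocount, filter, scaling, moderation, a block for the replicate number, voom weights on the recovered reads and each library left out. A low pseudocount without filter and the summed ICOSLG rows were added after seeing the data.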

Additional observations from a re-analysis of the deposited data

How the results depend on the processing

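The log2 change of CD80, CD86, CD83, CD47, HAVCR2 and ICOSLG kept its sign under every alternative that tested it, from -0.63 to -0.42 for CD80, -0.44 to -0.25 for CD86, -0.78 to -0.43 for CD83, -0.30 to -0.18 for CD47, -0.70 to -0.26 for HAVCR2 and 0.0045 to 0.20 for ICOSLG. Where tested, CD274 ranged from -0.32 to -0.13 and PDCD1LG2 from -0.36 to -0.07, the larger changes with 0.1 FPKM added. The number of these genes called was 0 to 1 with each library left out, CD83 being called without DMSO replicate 3, and 0 under all other settings. The number of all genes called, 0 in the comparison itself, was 1 with a pseudocount of 0.1, 1 with TPM scaling, 66 without a filter (where limma reported most variances as 0, so that fit is unreliable), 12 without a filter at a pseudocount of 0.1 and 0 to 267 with each library left out, the 267 without DMSO replicate 3. At an unadjusted p under 0.05 the 5 of 6 genes became 1 without DMSO replicate 1 or bryostatin replicate 1 and 2 without DMSO replicate 2. They became 3 without bryostatin replicate 2 or 3 and 5 without DMSO replicate 3. Of all tested genes 795 were lower at that level with all libraries. Without DMSO replicates 1, 2 or 3 this was 328, 677 or 1131, and without bryostatin replicates 1, 2 or 3 it was 353, 823 or 519. Median-of-ratios scaling is the deposited scaling and changed nothing. The bryostatin minus DMSO difference of the log2 ratio of CD80 to CD86 ranged from -0.21 to -0.13, and the difference for the CD28 over the PD-1 ligands from -0.40 to -0.10.

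Same-numbered libraries did not deviate alike from their group means, with correlations of the deviations of -0.29, -0.32 and -0.11. Whether they were prepared as pairs cannot be told from these values. With the replicate block in limma 0 genes were called, 0 of the 6 among them, and CD80 had an adjusted p of 0.456. An unadjusted p under 0.05 was reached by 2 of the 6. Of all tested genes 407 were lower at that level with the block, in place of 795 without it. Depth limited PDCD1LG2 (3 to 7 reads per library) and CD274 (31 to 61 reads).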
